A study of Mus musculus with 4 samples.

Results

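Metallothioneins are small, cysteine-rich proteins that bind zinc and copper. Mt1 and Mt2 are the widely expressed forms, and their transcription is known to respond to metals through the zinc-sensing factor MTF-1, to glucocorticoids and to oxidative stress. Mt3, also called growth inhibitory factor, is the form known for its expression in the brain, in astrocytes and neurons. Mt4, the form of stratified epithelia, has no named probe here and was not analysed. The 3 genes were found by the platform's gene symbol, among 8980 genes with a named probe. Each had 1 probe, out of 25697 on the array and 12484 with a symbol. The family was selected on values of these same 4 arrays, whose differences between groups were known when it was chosen. Its values are therefore a description, and no test supports them.

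The arrays were Illumina bead arrays of mouse neural precursor cells. The cells came from embryonic day 12 cortices of the ICR strain and were expanded with bFGF and EGF in serum-free N2 medium that held ascorbic acid and B27. The dividing cultures were exposed for 2 hours to retrovirus with Nurr1 and Foxa2 (Nurr1+Foxa2), with Nurr1 alone, with Foxa2 alone, or with the empty vector pCL (Control). Both growth factors were then withdrawn from all groups, and RNA was taken on day 2 of differentiation. Nurr1, encoded by Nr4a2, is a nuclear receptor needed by midbrain dopamine neurons, and Foxa2 is a forkhead factor of the floor plate. The question behind the series is whether the factors are synergistic in the making of dopamine neurons. There was 1 array per group, 4 in all, so every value below stands without a replicate check and no p-value is given. RNA came from whole cultures, in which a change in the number of cells of a type and a change in RNA per cell cannot be told apart, and the share of infected cells is not known here.

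The Nr4a2 probe, a check of the labels, had a signal of 1620 with both factors, 1669 with Nurr1, 216 with Foxa2 and 167 with the empty virus. Foxa2 has no named probe here and its level was not analysed. Between 42.7% and 44.6% of probes were detected on an array, that is, had a detection p-value under 0.01. The median signal lay between 134 and 149.

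All 3 metallothionein probes were brightest on the Nurr1+Foxa2 array. Mt1 had a deposited signal of 62971 with both factors, 30656 with Nurr1, 28600 with Foxa2 and 28504 with the empty virus. Its signal with both factors stood apart, while the other 3 arrays lay close together. Mt2 had a signal of 1385 with both factors, 343 with Nurr1, 274 with Foxa2 and 227 with the empty virus. The Mt2 probe was dim but detected everywhere, since detection on the Control array began at 166. Mt3 had a signal of 64378 with both factors, 25958 with Nurr1, 15417 with Foxa2 and 13882 with the empty virus. The Mt3 signals thus formed a graded series in which the Nurr1 array also lay well above the Control array.

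**Figure D1:**
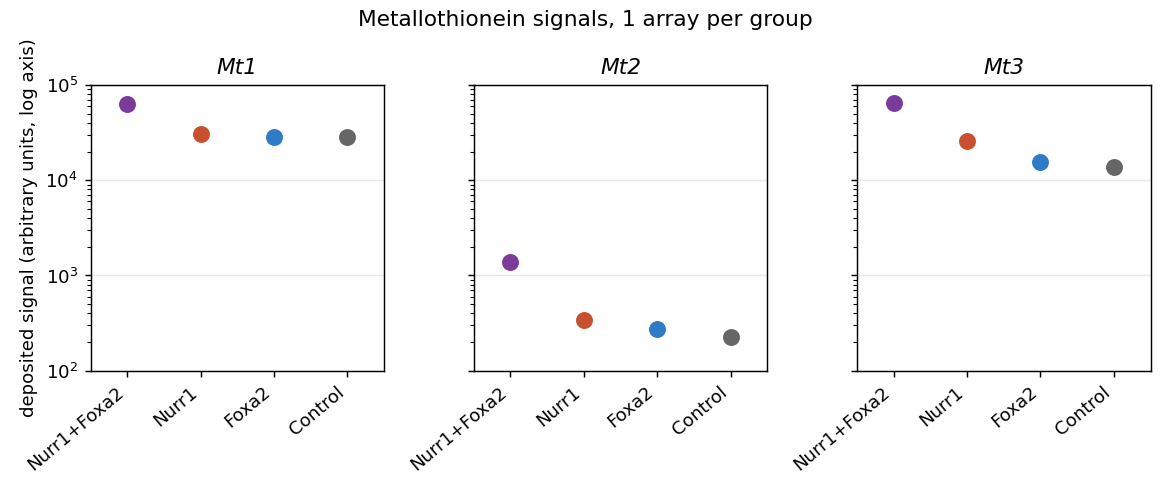
Deposited signals of the Mt1, Mt2 and Mt3 probes on a log axis, 1 point per array, in the order Nurr1+Foxa2, Nurr1, Foxa2 and Control. Every panel has its highest point with both factors, 62971 for Mt1, 1385 for Mt2 and 64378 for Mt3, and the Foxa2 and Control points lie next to each other.

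The place of each probe among all 25697 signals of its array moved in the same way. Mt3 had the highest signal of any probe on the Nurr1+Foxa2 array, against place 81 with Nurr1, 219 with Foxa2 and 236 with the empty virus. Mt1 was at place 9 with both factors, 55 with Nurr1, 70 with Foxa2 and 74 with the empty virus. Mt2 was at place 3760 with both factors, 8083 with Nurr1, 9291 with Foxa2 and 9363 with the empty virus. Places compare a probe with itself across arrays, since probes differ in brightness for the same amount of RNA. The brightest signal of each array lay between 64378 and 66419, and 10 to 17 probes per array were above 60000. Mt1 and Mt3 thus sat at the top of the signal range with both factors. Their differences may be understated there, which was not tested.

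The 3 genes lie beside each other on chromosome 8 in the order Mt4, Mt3, Mt2 and Mt1 (RefSeq, assembly GRCm38.p6). The 250 bases before each annotated start are shown because the metal response element, the binding site of MTF-1, is the best known regulatory sequence of the family. Capitals mark each match to its core, searched on both strands as TGCACNC or TGCGCNC. All 3 windows are on the plus strand and read 5′ to 3′: chr8:94178839-94179088 for Mt1, chr8:94172368-94172617 for Mt2 and chr8:94152357-94152606 for Mt3.
Mt1: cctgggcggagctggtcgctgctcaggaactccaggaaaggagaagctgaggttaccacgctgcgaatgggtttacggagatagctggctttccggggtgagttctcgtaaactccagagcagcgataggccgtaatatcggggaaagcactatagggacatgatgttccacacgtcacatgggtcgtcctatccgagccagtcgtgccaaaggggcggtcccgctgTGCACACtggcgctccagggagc
Mt2: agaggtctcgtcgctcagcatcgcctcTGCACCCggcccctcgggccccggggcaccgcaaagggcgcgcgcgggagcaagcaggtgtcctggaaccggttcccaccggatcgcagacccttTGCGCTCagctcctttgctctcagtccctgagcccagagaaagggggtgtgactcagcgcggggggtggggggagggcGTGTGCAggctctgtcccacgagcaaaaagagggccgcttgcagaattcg
Mt3: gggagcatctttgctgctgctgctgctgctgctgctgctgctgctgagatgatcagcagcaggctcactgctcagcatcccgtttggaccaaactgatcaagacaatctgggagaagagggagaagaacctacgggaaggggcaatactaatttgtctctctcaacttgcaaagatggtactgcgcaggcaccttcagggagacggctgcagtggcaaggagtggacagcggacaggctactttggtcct

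The Mt2 window held 3 cores, which start 223, 128 and 50 bases before the annotated start. The Mt1 window held 1, which starts 23 bases before it, and the Mt3 window held 0. At least 1 core was found in 21.4% of the 32851 RefSeq windows of this length and at least 3 in 1.26%. The Mt2 window also held an antioxidant element, TGACNNNGC, 79 bases before the start and clear of the metal response cores, a match found in 10.2% of windows. None of the 3 windows held the Nurr1 monomer site AAAGGTCA (in 1.34% of windows), the forkhead site TGTTTAC (3.17%), the glucocorticoid receptor half-site TGTTCT (16.1%) or a TATAAA box (12.4%). These letters are a description of the 250 bases before RefSeq's starts, with 1 window per gene, and the 50 bases after the start were not searched. Elements outside these windows, such as those near any other start of a gene, are not counted. A low or absent count, also of the TATAAA box, is therefore no statement about a gene's whole promoter.

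With both factors, all 3 genes were at least 2-fold above Control after background correction and quantile normalization, where 7.06% of 8019 detected genes were as much higher and 4.74% as much lower. Mt2 was 7.32-fold higher than Control, a log2 difference of 2.87. Mt3 was 4.61-fold higher (2.20 on the log2 scale) and Mt1 2.26-fold higher (1.18). Mt2 stood at place 72 from the highest difference of all 8019 genes, Mt3 at 142 and Mt1 at 448. The folds and places of Mt1 and Mt3 use signals at the top of the range and may understate the differences. Over all these genes the median log2 difference was -0.08. The only error at hand is how far probes of 1 gene differ from each other in this comparison, a between-probe SD of 0.24 over 1925 genes, and each of the 3 differences was larger. It leaves out differences between cultures and infections. The value for Mt1 was below 2-fold when arrays were scaled to equal medians (0.90) or to equal 75th percentiles (0.87), while Mt2 and Mt3 were above 2-fold under every alternative tried.

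With Nurr1 alone, none of the 3 genes was 2-fold above Control, against 4.37% of 7915 genes at least 2-fold higher and 2.79% lower. Mt3 was 1.87-fold higher than Control (log2 0.90) and Mt2 1.58-fold higher (0.66), both beyond the between-probe SD of 0.18. Mt1 was 1.18-fold higher (0.24), also beyond that SD, but its value became 0.015 with equal medians and -0.023 with equal 75th percentiles. The largest difference was that of Mt3 here and that of Mt2 with both factors, but Mt3 was the brightest probe of the Nurr1+Foxa2 array, so the order of Mt2 and Mt3 there is uncertain.

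With Foxa2 alone, the 3 genes lay within 0.07 of Control on the log2 scale, less than the between-probe SD of 0.20. Mt1 and Mt2 each differed by 0.04 and Mt3 by 0.07. At least 2-fold higher with Foxa2 were 3.52% of 7923 genes, and 1.48% were at least 2-fold lower. The sign of these small values was not stable for Mt1, which was -0.19 with equal medians and -0.29 with equal 75th percentiles, nor for Mt3, which was -0.05 and -0.14. For Mt2 it stayed positive.

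**Figure D2:**
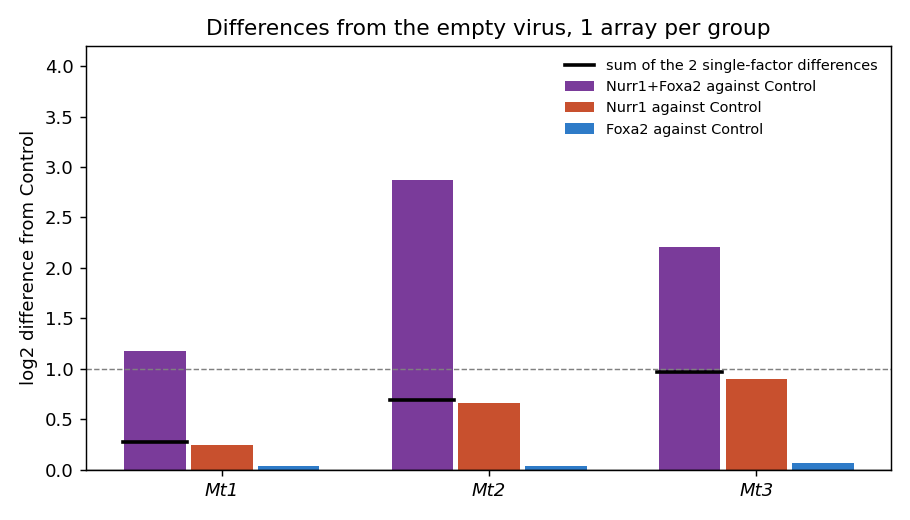
Bars give the log2 difference of the Nurr1+Foxa2, Nurr1 and Foxa2 arrays from the Control array for each gene, and the black line on the first bar gives the sum of the single-factor differences. The dashed line marks 2-fold. With both factors the bars reach 1.18 for Mt1, 2.87 for Mt2 and 2.20 for Mt3, above the sums of 0.28, 0.69 and 0.97.

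Set against each single factor, the Nurr1+Foxa2 array was again the higher one for all 3 genes. Compared with Nurr1, Mt2 was 4.65-fold higher (log2 2.22), Mt3 2.47-fold (1.30) and Mt1 1.92-fold (0.94). This made 2 of 3 genes at least 2-fold higher, where 4.41% of 7977 genes were higher and 1.72% lower. Compared with Foxa2, Mt2 was 7.14-fold higher (2.84), Mt3 4.40-fold (2.14) and Mt1 2.21-fold (1.14), and all 3 passed 2-fold, against 4.81% of 8045 genes higher and 3.85% lower. The between-probe SD was 0.20 in both comparisons. These comparisons share the Nurr1+Foxa2 array with the one against Control and are not independent of it.

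The 4 arrays had the same order for each gene, with Nurr1+Foxa2 highest, then Nurr1, Foxa2 and Control. Foxa2 and Control did not differ beyond the spread between probes for any of the 3. Nurr1 lay 0.83 above Foxa2 on the log2 scale for Mt3, 0.62 for Mt2 and 0.20 for Mt1, against a between-probe SD of 0.19. Over 6 sets of values (quantile normalization with and without background correction, a larger offset, scaling by the median or the 75th percentile, and the authors' own values), the Nurr1+Foxa2 array was the highest in 18 of 18 cases. The full order was as above in 14 of 18, and the exceptions concerned Mt1 and Mt3 under the scalings by median or percentile, where Control lay above Foxa2 and, for Mt1 with the percentile, also above Nurr1.

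The joint term is the log2 difference of Nurr1+Foxa2 from Control minus the sum of the single-factor differences, and it is 0 where the factors multiply. It was 2.18 for Mt2, 1.24 for Mt3 and 0.90 for Mt1. Of 7127 genes detected on all 4 arrays, 2.89% had a joint term of at least 1, as did 2 of the 3 metallothionein genes. Mt1 also passed 1 with equal medians (1.08) and with equal 75th percentiles (1.18). Mt2 was at place 16 of the 7127, Mt3 at 113 and Mt1 at 259 (the joint terms of Mt3 and Mt1 may be understated, since their signals with both factors were at the top of the range), beside a median of -0.03 and quartiles of -0.29 and 0.24. The spread of the joint term between probes of a gene was 0.24 (SD, 1881 genes). Each term combines 4 single arrays, so a deviation of any 1 of them enters it in full.

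**Figure D3:**
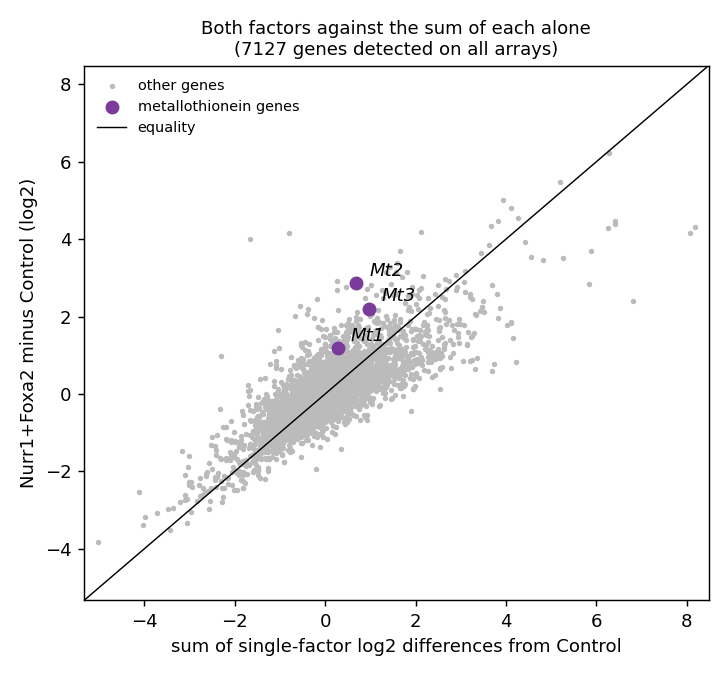
Each point is a gene detected on all 4 arrays, with the sum of its single-factor log2 differences from Control on the horizontal axis and its Nurr1+Foxa2 minus Control difference on the vertical axis, and the line marks equality. Mt1, Mt2 and Mt3 lie above the line, by 0.90, 2.18 and 1.24, and both axes use the same Control array.

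The genes on either side of the metallothioneins were compared in the same way. Among the 5 nearest measured genes on each side, the log2 difference of Nurr1+Foxa2 from Control ran from -0.61 to 2.68 with a median of 0.31, and 2 of the 10 passed 2-fold, beside 11.8% of all genes that did so either way. One of them is Bbs2, the nearest measured gene on the Mt3 side, which encodes a subunit of the BBSome, a complex of ciliary transport. Bbs2 had a signal of 1953 with both factors, 425 with Nurr1, 372 with Foxa2 and 325 with the empty virus. It was 2.68 above Control with both factors on the log2 scale, 0.34 with Nurr1 and -0.08 with Foxa2, close to the values of Mt2. The other is Gnao1, which encodes a G protein subunit abundant in neurons, with 1.36 for both factors, 1.56 for Nurr1 and 0.54 for Foxa2. The nearest measured gene on the Mt1 side, the nuclear pore gene Nup93, had values of 0.47, 0.29 and 0.75.

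**Figure D4:**
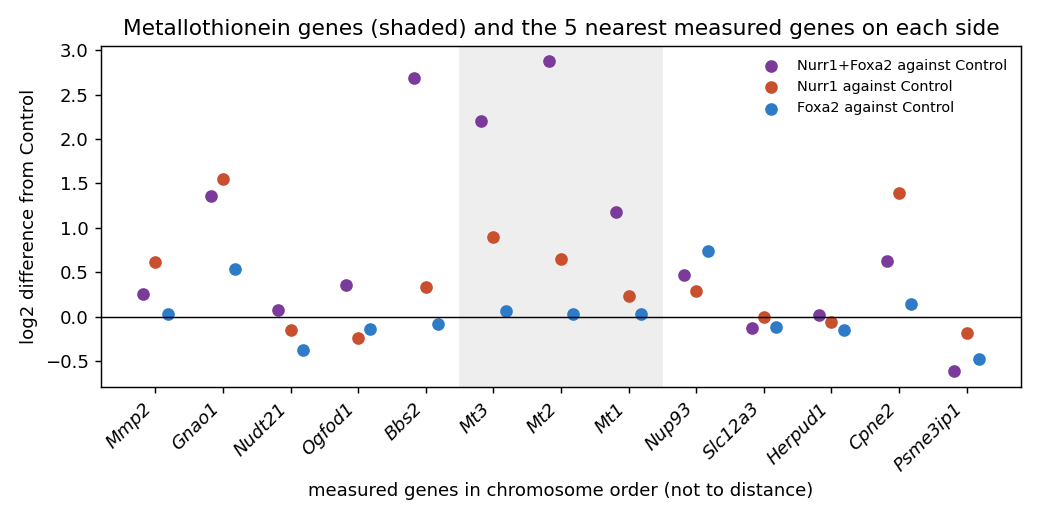
Log2 differences from Control for Mt3, Mt2 and Mt1 (shaded) and the 5 nearest measured genes on each side, in chromosome order but not to distance, with 1 point each for Nurr1+Foxa2, Nurr1 and Foxa2. Bbs2, beside Mt3, has a point at 2.68 with both factors, like Mt2 at 2.87, while those of the 5 genes beyond Mt1 lie between -0.61 and 0.63 with both factors.

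Likeness was measured as the root mean square difference between 2 genes' log2 values over the 4 arrays, each centred on its own mean. Each member was compared with 7126 other genes detected on all arrays. The values were not scaled, so the measure counts the size of a gene's differences as well as their pattern. The genes most like Mt2 were the Wnt receptor gene Fzd6 (0.06), Bbs2 (0.12), the angiogenic factor gene Vegfa (0.13), the cap-binding protein gene Eif4e3 (0.17) and Tmem98 (0.17). Those most like Mt3 were the lipid kinase gene Pi4k2b (0.06), the BMP co-receptor gene Rgmb (0.13), Gramd3 and Dync1i1, a dynein intermediate chain gene (0.14 each), and Tceal5 (0.14). Those most like Mt1 were Fyco1, of autophagosome transport (0.06), the adhesion gene Cadm1 (0.06), Errfi1, a feedback inhibitor of the EGF receptor (0.07), Tmbim4 (0.07) and the threonyl-tRNA synthetase gene Tars (0.07). Among the metallothioneins, Mt2 and Mt3 were 0.34 apart, Mt1 and Mt3 0.43, and Mt1 and Mt2 0.69. In the order of genes most like Mt2, Mt3 was at place 16 and Mt1 at 133, and in that for Mt3, Mt2 was at place 54 and Mt1 at 113. In the order for Mt1, Mt3 was at place 1481 and Mt2 at 5953 of 7126. The centred values of Mt1 were 0.81, -0.12, -0.33 and -0.36 on the Nurr1+Foxa2, Nurr1, Foxa2 and Control arrays. Those of Mt2 were 1.98, -0.23, -0.86 and -0.89 in that order. Their signs and order were thus the same, and their sizes differed. The low place of Mt2 therefore does not mean an unlike pattern. The size for Mt1 may be understated at the top of the signal range. Likeness over 4 arrays rests on few values, and how many genes have such a pattern was not counted.

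Other genes of metal handling were set beside the metallothioneins. Over all 8019 genes, 11.8% differed at least 2-fold either way between both factors and the empty virus. Of 25 genes for zinc transporters and MTF-1, 16 had a named probe and 13 were detected with both factors or with the empty virus. None of the 13 was at least 2-fold higher and 1 was lower, a count near the share over all genes, with a median log2 difference of -0.09. The lower one was Slc30a10, a manganese exporter of the zinc transporter family, with a signal of 229 with both factors, 229 with Nurr1, 842 with Foxa2 and 873 with the empty virus. Slc30a1, a zinc exporter known as an MTF-1 target, had signals of 308, 218, 280 and 281 on the Nurr1+Foxa2, Nurr1, Foxa2 and Control arrays. Its log2 difference from Control was -0.22 with both factors, -0.74 with Nurr1 and -0.38 with Foxa2. With both factors it lay 0.52 above Nurr1 and 0.15 above Foxa2. Mtf1 itself was dim, with signals of 175, 157, 198 and 160 on the arrays in that order, and was detected only on the Foxa2 array.

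Among 15 measured genes of copper and iron handling, 2 were at least 2-fold higher with both factors and 0 lower, with a median of -0.03. Slc31a1, the copper importer of the plasma membrane, had a signal of 10144 with both factors, 8805 with Nurr1, 3100 with Foxa2 and 2234 with the empty virus. Its log2 difference from Control was 2.06 with both factors and 1.95 with Nurr1, so unlike Mt2 it differed as much with Nurr1 alone. Atp7a, the copper-exporting ATPase, had signals of 645, 285, 252 and 190 on the Nurr1+Foxa2, Nurr1, Foxa2 and Control arrays, and was 2.07 above Control with both factors and 0.73 with Nurr1. Cp, which encodes the copper oxidase ceruloplasmin, was 0.91 above Control with both factors and 1.07 with Foxa2.

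Lists for other known inducers of metallothioneins are given for both factors against Control unless another group is named. Those counts are to be read against the same 11.8% of all genes. Of 10 glucocorticoid response genes 1 was higher, Errfi1 (log2 1.27), and 0 lower, with a median of -0.15. With Foxa2 alone 1 was higher, the cell cycle inhibitor gene Cdkn1c (1.05), and 1 lower, the glucocorticoid-induced kinase gene Sgk1 (-1.47). Over all genes 3.52% were higher and 1.48% lower with Foxa2. With Nurr1 alone 1 was lower, Cdkn1c (-2.18), where 4.37% of all genes were higher and 2.79% lower. Of 9 genes of the NRF2 antioxidant response 0 were higher and 1 was lower, the glutathione transferase gene Gstm1 (log2 -2.16), with a median of 0.05. Of 11 hypoxia response genes 2 were higher, Vegfa (2.92) and the hexokinase gene Hk2 (1.03), with a median of -0.02. Of 6 heat shock genes 1 was higher, the co-chaperone gene Bag3 (1.95), and of 7 genes of the cytokine and STAT3 response 0 passed 2-fold either way. Bag3 (1.69) and Gstm1 (-2.09) were also past 2-fold with Nurr1 alone, while 0 of the hypoxia response genes were.

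**Figure D5:**
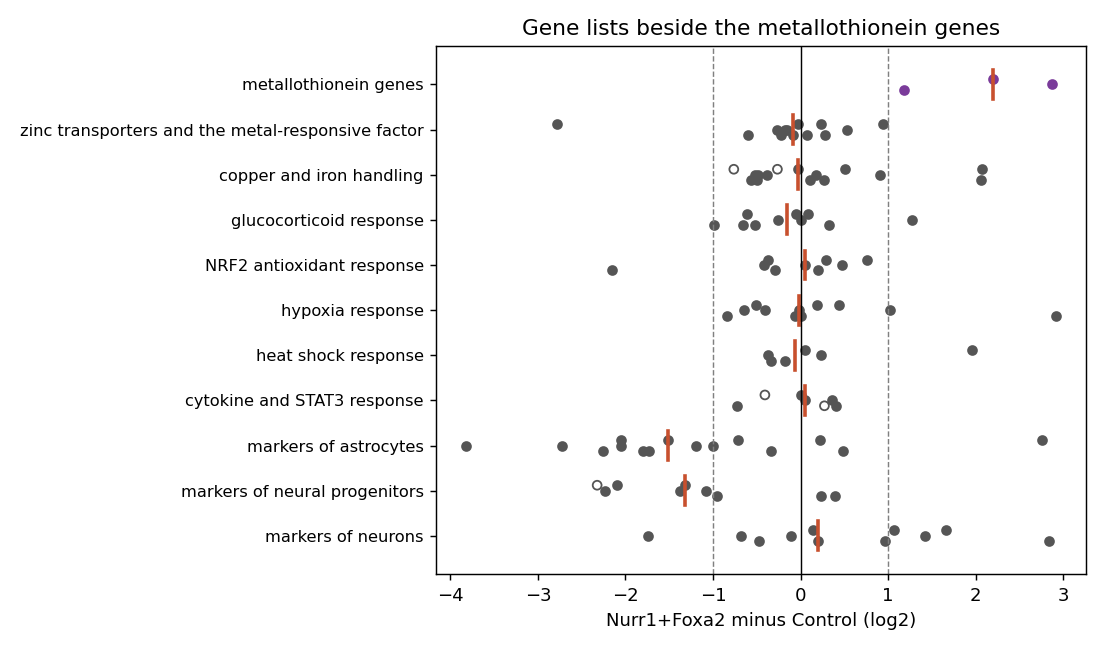
Each point is a measured gene's log2 difference of Nurr1+Foxa2 from Control, by list, with open points for values that are bounds, red bars for list medians and dashed lines at 2-fold. The metallothionein genes lie at 1.18, 2.20 and 2.87, the 7 metal and stress lists have medians between -0.15 and 0.05, and the astrocyte markers have a median of -1.51.

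Metallothioneins are known as genes of astrocytes, so markers of the cell types in these cultures are set beside them. All 15 named astrocyte markers were detected with both factors, and their summed normalized level was 49635 with both factors, 75370 with Nurr1, 91681 with Foxa2 and 114914 with the empty virus. With both factors 9 of the 15 were at least 2-fold lower than Control and 1 was higher, with a median log2 difference of -1.51. Over all 8019 genes, 4.74% were as much lower and 7.06% as much higher, which also applies to the marker counts with both factors below. The apolipoprotein gene Apoe had a log2 difference of -3.82, the GABA transporter gene Slc6a11 -2.72 and the glutamate transporter gene Slc1a2 -2.26, while the neurotensin receptor gene Ntsr2 had 2.76. The summed astrocyte level was thus lowest with both factors and highest with the empty virus. The main values of Mt1, Mt2 and Mt3 were highest with both factors and lowest with the empty virus. Single markers did not all follow the sum, and Ntsr2 was brightest with Nurr1 (signal 3302, against 443 with the empty virus). The sum leans on 1 bright gene, the glutamate transporter gene Slc1a3. Its deposited signals were 21127, 26664, 48858 and 60636 on the Nurr1+Foxa2, Nurr1, Foxa2 and Control arrays. The sum without it was not computed, so the places of Nurr1 and Foxa2 in the order of the sum may rest on this gene. The order of Foxa2 and Control was also not stable for Mt1 and Mt3. With Nurr1 alone 9 of the 15 markers were at least 2-fold lower and 3 higher, against 2.79% and 4.37% of 7915 genes. Of 9 neural progenitor markers 6 were lower and 0 higher with both factors (median -1.32), and of 11 neuronal markers 4 were higher and 1 lower (median 0.20). The same 11 neuronal markers had 6 higher and 1 lower with Nurr1 alone (median 1.04). They had 1 higher and 0 lower with Foxa2 alone (median 0.46), against 3.52% and 1.48% of 7923 genes. Of 8 measured markers of the oligodendrocyte lineage 6 were lower and 0 higher with both factors (median -1.88). Their summed level was 32835 with both factors, 65131 with Nurr1, 50614 with Foxa2 and 77001 with the empty virus. Most of this sum is 1 bright gene, Olig1. Its deposited signals were 26787, 46813, 37826 and 53318 on the Nurr1+Foxa2, Nurr1, Foxa2 and Control arrays. The summed neuronal level was 19128 with both factors, 23656 with Nurr1, 21442 with Foxa2 and 18477 with the empty virus. A sum weights bright genes more than the median does. Markers of microglia had 2 of 9 genes with a named probe and 0 detected with both factors, and endothelial markers 2 of 8 with 1 detected. Markers of pericytes, meninges and fibroblasts had 5 of 9 genes with a named probe, with 3, 3, 1 and 0 detected on the Nurr1+Foxa2, Nurr1, Foxa2 and Control arrays. The part of cell composition in the metallothionein values was not tested.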

How the data were processed

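Total RNA of 4 cultures was labelled with biotin and hybridised to single-colour bead arrays, per the labels' protocols. The scanner table deposited by the authors gives each probe an intensity (mean bead signal on a linear scale, not normalized between arrays) and a detection p-value on each array, per the file headers. Log2 values of part of the probes were also deposited by the authors, and how they were made is not given in the sources used here. Their scale and direction match the signals, and all columns share 1 distribution.

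Background was estimated from the detection p-values, an offset of 16 added and quantile normalization applied with neqc (limma 3.58.1, R 4.3.3). Tables and figures used Python 3.11.15, numpy 2.4.6, pandas 2.3.3 and matplotlib 3.10.9. Probe symbols came from the platform annotation, and the brightest of several probes stood for a gene. A gene was detected at a detection p-value under 0.01. An undetected value was raised to the lowest detected one, and a gene counted as higher or lower from 2-fold. The steps were checked on simulated data. The probes changed there were not as bright as Mt1 and Mt3 with both factors, nor as dim as Mt2 on the Control array. The check therefore does not cover such signals. The number of arrays limits the precision. Members and lists were chosen with earlier results of these data known. The named genes were all members, up to 4 per list with the largest differences from Control past 2-fold, Mtf1, Slc30a1, Nr4a2, the 5 genes most like each member and the 5 nearest measured genes on each side. Marker lists are mostly summarised. Slc1a3 and Olig1 are named besides as the brightest markers of astrocytes and of the oligodendrocyte lineage on the Control array. The alternatives tried were other background, offset, scaling, detection and probe rules and the authors' values.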

Additional observations from a re-analysis of the deposited data

How the results depend on the processing

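The 18 metallothionein differences and joint terms were computed under 8 alternatives, and 125 of 144 values moved by less than the spread between probes of a gene, with 0 reversals of a difference past 2-fold. Without background correction, Mt2 was 0.47 (log2) above Control with Nurr1 and 2.38 with both factors, both factors lay 1.91 above Nurr1 and 2.35 above Foxa2, and its joint term was 1.89. With the authors' values the last 4 were 2.37, 1.90, 2.34 and 1.87, and with an offset of 50 Mt2 was 2.62 above Foxa2. With equal medians Mt1 was 0.90 above Control with both factors, 0.015 with Nurr1 and -0.19 with Foxa2. With equal 75th percentiles these were 0.87, -0.023 and -0.29, the Mt1 joint term was 1.18, and Mt3 was 1.94 with both factors and -0.14 with Foxa2. The cause was not tested. Detection at 0.05, no detection floor and averaging probes could not change the 18 values, since each gene has 1 probe, detected on all arrays. Their unchanged values are among the 125, so only the other alternatives bear on how stable the values are. Equal medians moved the median of all genes to -0.11 and equal 75th percentiles to -0.14 with both factors against Control.

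Among counts over all genes, those at least 2-fold lower fell without background correction to 146 for Nurr1 against Control (221 as reported), 55 for Foxa2 (117), 77 for both factors against Nurr1 (137) and 201 against Foxa2 (310). With the authors' values they were 146, 57, 73 and 199. No paired analysis was possible because each group has 1 array.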
